A study of Mus musculus with 8 samples.

Results

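The assembly factors of the respiratory chain are nuclear encoded proteins that help complexes I to V of the inner mitochondrial membrane to be built but are absent from the finished enzymes. A set of 44 of them was taken by gene name, 13 for complex I, 4 for complex II, 6 for complex III, 18 for complex IV and 3 for complex V, out of 22911 genes named on the array. All 44 had at least 1 probe whose accession is a RefSeq transcript of the gene, with 68 probes in all, 24 genes having 1 probe and 20 having several. Their mRNAs were measured in muscle of 3 Grsf1cKO and 3 wild-type (WT) male mice aged 17 months with 8 Agilent 1-color arrays, since 2 of the mice, WT 1 and Grsf1cKO 1, were each hybridized a second time as a repeat. In the knockout, the Grsf1tm1a allele of the European Mouse Mutant Archive had been crossed with FLPo mice, which left exons IV and V flanked by loxP sites, and then with Myf5Cre mice. The Myf5 promoter is active in muscle precursors, so other cells of the muscle may keep *Grsf1*. The labels call the control mice wildtype and do not say whether they carried a floxed allele or Cre. The labels name the vastus intermedius and the methods the rectus femoris, both heads of the quadriceps.

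GRSF1 is an RNA-binding protein of mitochondrial RNA granules that acts on transcripts of mitochondrial DNA, which encode core subunits of complexes I, III, IV and V. Those core subunits are joined to nuclear encoded subunits in a set order, and assembly factors insert heme, copper, iron-sulfur clusters and flavin, hold intermediates together and bring modules to each other. Complex II has no subunit from mitochondrial DNA, so that its 4 factors serve proteins made wholly in the cytosol. Mutations in many of these factors cause human respiratory chain deficiency, often with disease of muscle, heart or brain. The comparison asked whether the mRNAs of this machinery differed in level in muscle without *Grsf1*.

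The mRNAs of the assembly factors differed little between the genotypes. No member passed the criteria for a change (fold change over 1.5, unadjusted *p* under 0.01 and false discovery rate under 0.2 in limma), against 0.00771% of all probes tested, which is 3 of 38888. Over the brightest probe of each gene, the log2 fold change of Grsf1cKO over WT ran from -0.21 for *Atpaf1*, a chaperone of the F1 part of ATP synthase, to 0.18 for *Lyrm7*, a chaperone of the Rieske protein of complex III. The median was -0.02, beside -0.03 over all probes tested. It lay within 0.1 of 0 on the log2 scale in 32 of the 44 genes and within 0.2 in 43. In bulk muscle, fewer cells of a type and less RNA per cell cannot be told apart.

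The absence of a call came with narrow intervals for nearly all brightest probes. The 95% interval of the log2 fold change lay inside 1.5-fold in both directions for 43 of the 44 genes (97.7%), with *Lyrm7*, the dimmest of the brightest probes, as the exception. Over all member probes it did for 63 of 68 (92.6%), beside 62.9% of all probes tested, and the 5 outside belonged to *Lyrm7*, *Timmdc1*, *Cox16*, *Sco1* and *Acad9*. The standard error had a median of 0.0944 over the members and of 0.142 over all probes tested, both on the log2 scale. Leaving out *Lyrm7*, no interval of a brightest probe reached below -0.49 or above 0.46. Those of other probes reached further, down to -1.57 for *Timmdc1* and up to 0.90 for *Acad9*. Differences within these intervals remain possible with 3 mice per genotype. The lowest adjusted *p* of limma over the member probes was 0.996.

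**Figure D1:**
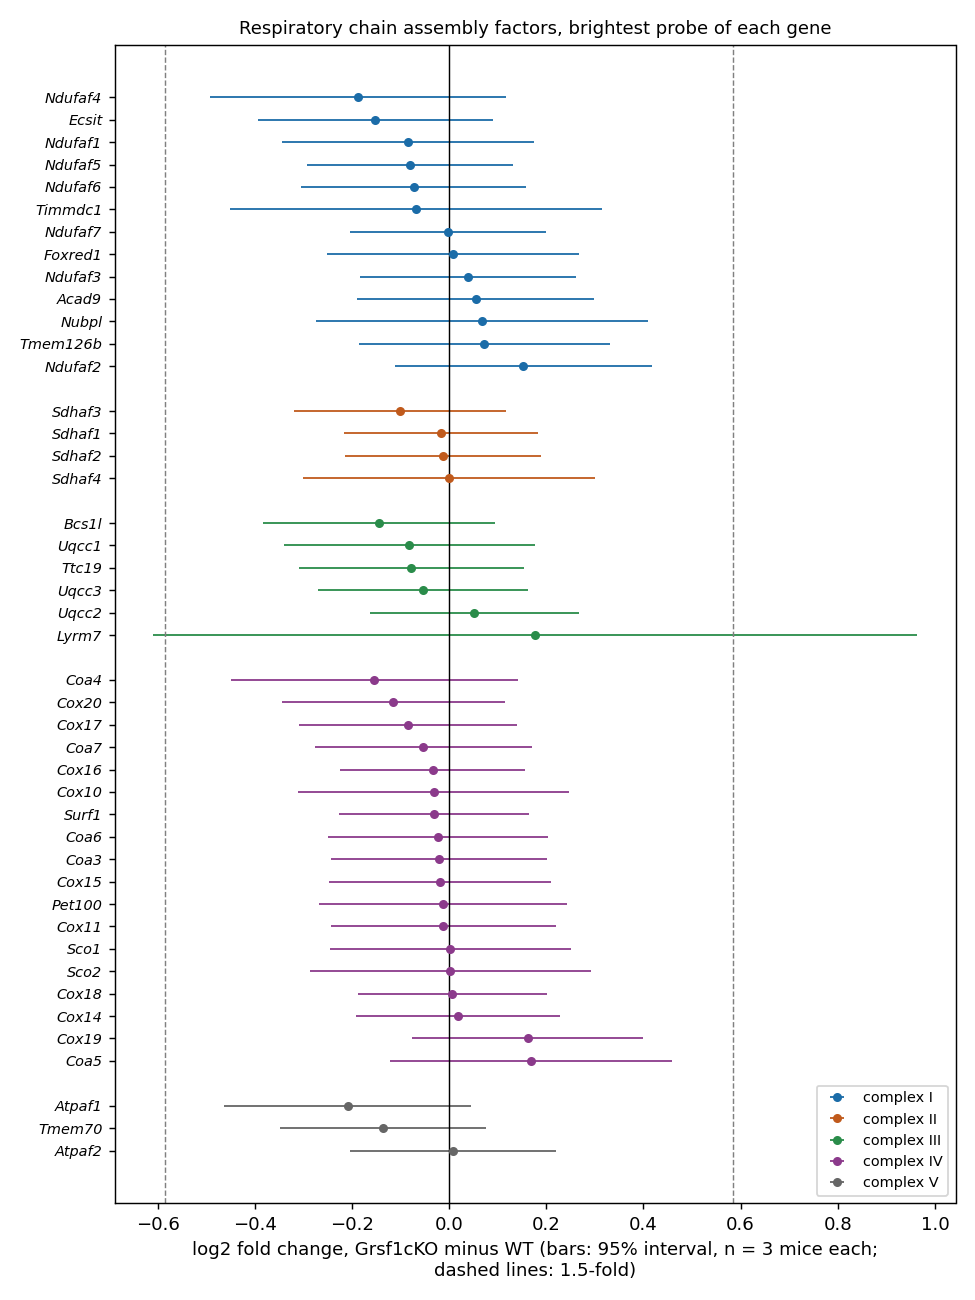
Log2 fold change of Grsf1cKO over WT (x axis) for the brightest probe of each of the 44 genes (y axis), grouped by complex, with 95% intervals of limma and 3 mice per genotype. The intervals of 43 genes lie inside the dashed lines at 1.5-fold, and that of *Lyrm7*, from -0.61 to 0.96, does not.

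Few members separated the genotypes, and their shares were read against those of all probes. An unadjusted limma *p* under 0.05 was seen for 0 member probes on the higher side (1.29% of all probes) and for 1 of 68 on the lower side (2.96% of all probes), a dim probe of *Sco1*. No member was higher in every Grsf1cKO mouse than in every WT mouse (3.08% of all probes). 3 genes of 44, *Tmem70*, *Ecsit* and *Ndufaf5*, were lower in every Grsf1cKO mouse (6.82%, against 6.27% of all probes), and the dim *Sco1* probe made 4 of 68 probes (5.88%). These shares are near or under those of all probes. *Ndufaf5* was counted although its nearest mice, Grsf1cKO 2 and WT 2, both rounded to 13.3163. The count of genes lower in every Grsf1cKO mouse moved with the processing and the mice. It was 1 with normexp (6.24% of all probes) and 10 of 44 without Grsf1cKO 1, when 11.8% of all probes were lower in every remaining Grsf1cKO mouse.

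*Grsf1* itself followed the labels. Its log2 signal was 12.15, 12.02 and 12.08 in Grsf1cKO mice 1, 2 and 3 and 14.30, 14.25 and 14.27 in WT mice 1, 2 and 3. The signal was 4.57-fold lower in the knockout, with a log2 fold change of -2.19 (SE 0.0811, adjusted *p* = 0.00328 in limma). The sequence of the probe was not given in the sources used here, so that its place relative to the floxed exons is unknown.

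The repeat array of Grsf1cKO 1 stood apart from the other 7. On it 88.9% of spots were well above background, against 66.3% to 73.1% on the others, and the 25th percentile of the processed signal was 55.5 against 9.68 to 15.7. All 68 member probes were well above background in all 6 mice, and no member spot was saturated or missing. The repeat differed from the first array of that mouse with an SD of 0.308 on the log2 scale over the member probes, and by 1.55 for *Lyrm7*. The corresponding SD for WT 1 was 0.0606. With the first array of each mouse only, 3 of 39243 probes passed the criteria (0.00764%) and again no member did. *Lyrm7* was then the only member probe with an unadjusted limma *p* under 0.05 on the higher side, where 1.7% of all probes were, and 0 member probes were on the lower side, where 2.38% were. Defining genes of skeletal muscle were above background in all 6 mice for 8 of 8 markers.

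**Figure D2:**
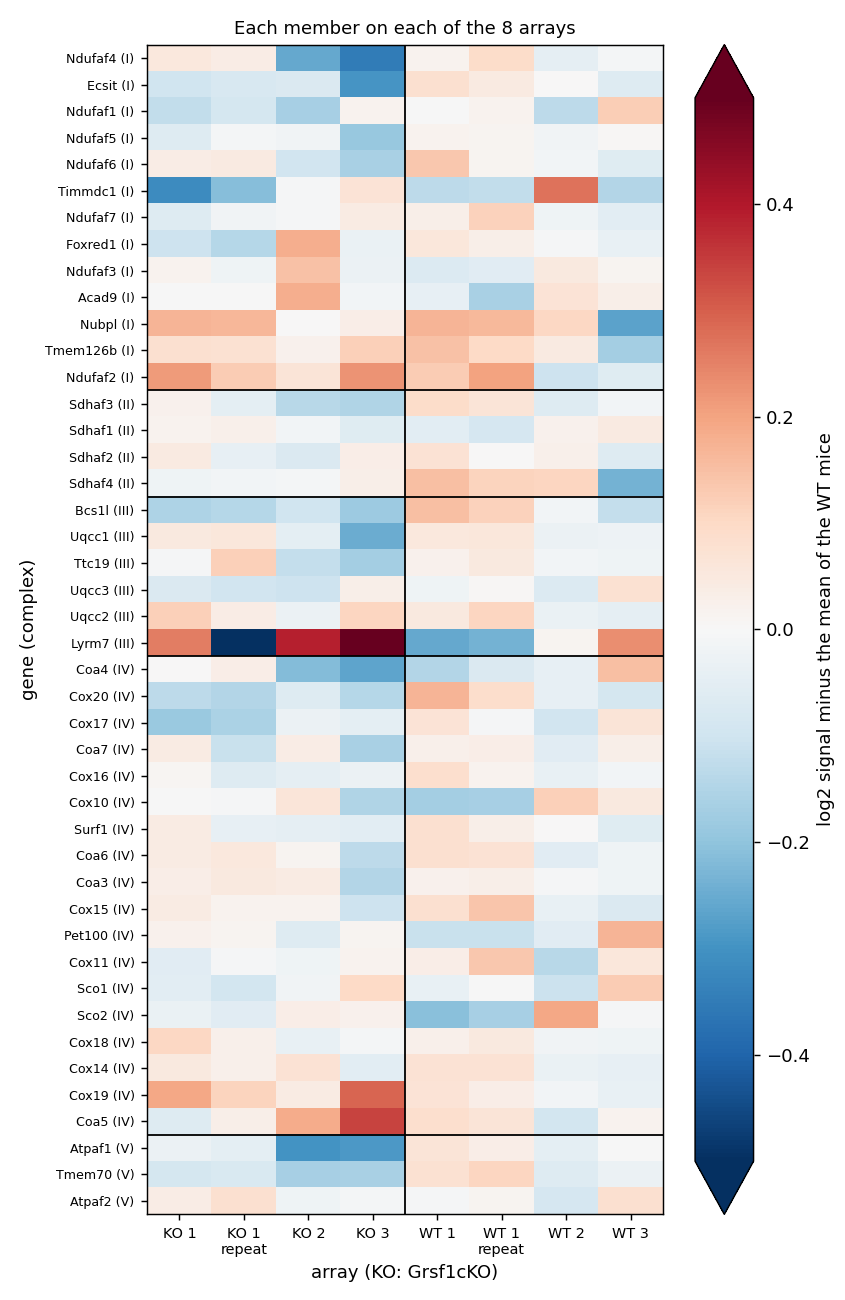
Log2 signal of each member (y axis) on each of the 8 arrays (x axis), as the difference from the mean of the WT mice of the same probe (color, cut at 0.5 either way). Most cells are pale, and *Lyrm7* on the repeat array of Grsf1cKO 1 stands out.

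Promoters of the members were searched for 3 motifs whose factors are known to regulate nuclear genes of the respiratory chain. These were the NRF1 motif (GCGCA, any base, GCGC), the ETS motif CCGGAAGT read by GABPA, and the YY1 motif AAGATGGCG, each on both strands, from 250 bases before to 50 bases after each start site given by RefSeq (GRCm38.p6). Such windows were at hand for 38 of the 44 genes. The NRF1 motif was in 5 of the 38 (13.2%, against 5.19% of all 27025 genes with a window), the ETS motif in 6 (15.8% against 4.31%) and the YY1 motif in 3 (7.89% against 1.64%). The motifs spell different letters. The median log2 fold change was -0.08 for the 5 genes with the NRF1 motif and -0.02 for the 33 without it. It was -0.03 for the 6 genes with the ETS motif and -0.01 for the 32 without it. For the YY1 motif it was 0.0079 in the 3 genes with it and -0.02 in the 35 without it. These medians are descriptions and were not tested.

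The 200 bases before the start site are given for 3 members, from 5′ to 3′ on the strand of the gene, with motif matches in capitals. *Ndufaf4* had the largest difference in complex I, *Uqcc2* is the brightest of complex III and *Cox10* was the only member with 2 of the 3 motifs, the YY1 match lying outside the bases printed. The NRF1 match began 113 bases before the start in *Ndufaf4* and 48 bases before it in *Uqcc2*. The ETS match began 27 bases before the start in *Cox10*.
Ndufaf4 promoter, chr4:24897883-24898082 (plus strand): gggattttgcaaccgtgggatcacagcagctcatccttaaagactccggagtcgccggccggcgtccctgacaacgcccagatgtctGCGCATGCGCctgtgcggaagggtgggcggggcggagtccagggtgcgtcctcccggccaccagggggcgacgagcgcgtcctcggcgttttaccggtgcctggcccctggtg
Uqcc2 promoter, chr17:27133892-27134091 (minus strand): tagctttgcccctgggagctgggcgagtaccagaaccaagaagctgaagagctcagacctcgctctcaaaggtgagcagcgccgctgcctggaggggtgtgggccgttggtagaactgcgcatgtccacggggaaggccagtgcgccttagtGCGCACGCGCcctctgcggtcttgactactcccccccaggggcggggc
Cox10 promoter, chr11:64079473-64079672 (minus strand): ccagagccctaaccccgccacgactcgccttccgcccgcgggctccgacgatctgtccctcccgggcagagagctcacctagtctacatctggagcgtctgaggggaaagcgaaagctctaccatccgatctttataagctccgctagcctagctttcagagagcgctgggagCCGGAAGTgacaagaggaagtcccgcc

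The 13 factors of complex I were spread on both sides of 0. 6 were higher and 7 lower, with a median log2 fold change of -0.0013. ECSIT, NDUFAF1, ACAD9 and TMEM126B form the MCIA complex, a scaffold on which the membrane arm is built. The log2 signal of *Ecsit* was 15.69, 15.71 and 15.49 in Grsf1cKO mice 1 to 3 and of 15.84, 15.78 and 15.72 in WT mice 1 to 3. Every Grsf1cKO value lay below every WT value, by a margin of under 0.01 between the nearest mice. The log2 fold change of -0.15 had an interval from -0.39 to 0.09 (limma *p* = 0.176, exact permutation *p* = 0.1, the smallest that 3 against 3 mice allow). The others of the scaffold were at -0.08 for *Ndufaf1*, 0.05 for *Acad9* by its brightest probe (0.44 by its other probe) and 0.07 for *Tmem126b*.

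The factors of the Q module, which carries the ubiquinone site, were lower in 4 of 5 genes by brightest probe, by under 0.2 on the log2 scale, and none passed the test. *Ndufaf4*, which acts with NDUFAF3 on early intermediates of this module, had the largest difference of complex I. Its log2 signal was 13.43, 13.13 and 13.04 in the Grsf1cKO mice and 13.44, 13.34 and 13.38 in the WT mice. Grsf1cKO 1 lay among the WT mice and the other two lay below them. The log2 fold change was -0.19 (interval -0.49 to 0.12, limma *p* = 0.182, exact permutation *p* = 0.3). Without Grsf1cKO 1 it was -0.30, with an unadjusted limma *p* under 0.05, and without Grsf1cKO 3 it was -0.11. *Ndufaf5*, a hydroxylase of the subunit NDUFS7, was at 13.30, 13.32 and 13.15 in the Grsf1cKO mice against 13.35, 13.32 and 13.34 in the WT mice. The genotypes were counted as not overlapping, but Grsf1cKO 2 and WT 2 both rounded to 13.3163. The log2 fold change was -0.08 (interval -0.29 to 0.13), and without Grsf1cKO 3 it was -0.03.

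*Ndufaf7*, a methyltransferase, differed least in complex I. Its log2 signal was 12.69, 12.72 and 12.77 in the Grsf1cKO mice and 12.80, 12.71 and 12.68 in the WT mice, with the genotypes interleaved. Its log2 fold change was -0.0013 (interval -0.20 to 0.20). The other members of complex I were *Ndufaf6* at -0.07, *Timmdc1* and *Foxred1*, which serve the membrane arm, at -0.07 and 0.01, *Ndufaf3* at 0.04, *Nubpl*, an iron-sulfur cluster protein, at 0.07 and *Ndufaf2*, which acts at a late step, at 0.15. None of these passed the test.

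The 4 factors of complex II had a median log2 fold change of -0.01. *Sdhaf3*, which protects the iron-sulfur subunit SDHB, had the largest difference, with a log2 signal of 11.07, 10.95 and 10.93 in the Grsf1cKO mice and of 11.16, 11.02 and 11.07 in the WT mice. The genotypes overlapped through Grsf1cKO 1, and the log2 fold change was -0.10 (interval -0.32 to 0.12). *Sdhaf4*, which assists the flavin subunit SDHA, had the smallest difference and the brightest probe, at 13.90, 13.91 and 13.95 in the Grsf1cKO mice and 14.05, 14.03 and 13.68 in the WT mice. Its log2 fold change was 0.00 (interval -0.30 to 0.30), with WT 3 the lowest of all 6 mice. *Sdhaf1*, the partner of SDHAF3, and *Sdhaf2*, which attaches flavin to SDHA, were at -0.02 and -0.01.

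Among the 6 factors of complex III the median log2 fold change was -0.07. UQCC1, UQCC2 and UQCC3 accompany the newly made cytochrome b, and their mRNAs were at -0.08, 0.05 and -0.05. *Uqcc2* differed least, with a log2 signal of 16.74, 16.64 and 16.77 in the Grsf1cKO mice and 16.74, 16.63 and 16.62 in the WT mice. Those ranges overlapped. LYRM7, BCS1L and TTC19 serve the Rieske iron-sulfur protein. *Bcs1l*, whose protein translocates it across the inner membrane, was at -0.14 (interval -0.38 to 0.09), and *Ttc19* was at -0.08.

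The value of *Lyrm7* moved with the arrays and the processing. Its log2 signal was 4.73, 5.64 and 5.91 in the Grsf1cKO mice and 5.0, 5.26 and 5.48 in the WT mice, so that the first knockout mouse was the lowest and the others the highest of the 6. The 2 arrays of Grsf1cKO 1 gave 5.50 at first and 3.95 on the repeat. The log2 fold change was 0.18 (interval -0.61 to 0.96, limma *p* = 0.601, exact permutation *p* = 0.7). It was 0.48 with the first arrays only (adjusted *p* = 0.992 in limma, unadjusted under 0.05), when no Grsf1cKO mouse overlapped the WT mice, and -0.09 with the repeat arrays in their place. No direction can be given for *Lyrm7*.

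The 18 factors of complex IV had a median log2 fold change of -0.02, with 6 higher and 12 lower. Those that make heme A, *Cox10* and *Cox15*, were at -0.03 and -0.02. *Surf1*, *Cox14* and *Coa3*, whose proteins act on the mitochondrially encoded subunit COX1, were at -0.03, 0.02 and -0.02. *Cox14* had the brightest probe of the complex, at 17.01, 17.04 and 16.91 in the Grsf1cKO mice and 17.04, 16.93 and 16.93 in the WT mice. Its genotypes overlapped and its interval ran from -0.19 to 0.23. *Cox18*, *Cox20* and *Cox16*, which serve COX2, were at 0.01, -0.11 and -0.03.

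The copper proteins of complex IV were on both sides of 0. *Cox17* and *Coa6*, copper chaperones of the space between the membranes, were at -0.08 and -0.02, *Cox11*, which supplies COX1, at -0.01, and *Sco2*, which supplies COX2, at 0.00. *Sco1* differed least of all 18 by its brightest probe, with a log2 signal of 9.44, 9.49 and 9.61 in the Grsf1cKO mice and 9.49, 9.41 and 9.64 in the WT mice. *Cox19*, a further protein of this group, was at 13.47, 13.36 and 13.61 against 13.37, 13.31 and 13.28. Grsf1cKO 2 lay just under WT 1, and the log2 fold change was 0.16 (interval -0.08 to 0.40, limma *p* = 0.148, exact permutation *p* = 0.2). Without Grsf1cKO 3 it was 0.10, and without Grsf1cKO 2 it was 0.22.

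*Coa5*, a complex IV factor of less defined role, had the largest difference of the complex. Its log2 signal was 11.63, 11.84 and 11.99 in the Grsf1cKO mice and 11.72, 11.56 and 11.67 in the WT mice. Grsf1cKO 2 and 3 lay above the WT mice and Grsf1cKO 1 among them, for a log2 fold change of 0.17 (interval -0.12 to 0.46, limma *p* = 0.207, exact permutation *p* = 0.3). Without Grsf1cKO 3 it was 0.08, and without Grsf1cKO 1 it was 0.26. *Coa4*, *Coa7* and *Pet100* were at -0.15, -0.05 and -0.01.

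Complex V had the lowest median of the 5 groups, -0.14, over 3 genes. With mice left out in turn this median ran from -0.17 to -0.09, and that of complex III from -0.09 to -0.04. *Atpaf1*, whose protein holds the beta subunit of F1 during assembly, was at 14.28, 14.02 and 14.04 in the Grsf1cKO mice and at 14.37, 14.27 and 14.32 in the WT mice. Grsf1cKO 1 fell among the WT mice and the other two lay below them. The log2 fold change was -0.21 (interval -0.46 to 0.05, limma *p* = 0.0919, exact permutation *p* = 0.2). Without Grsf1cKO 1 it was -0.29, with an unadjusted limma *p* under 0.05, and without Grsf1cKO 2 it was -0.16. Its second probe gave -0.14.

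*Tmem70*, which helps to form the ring of c subunits in the membrane part, was at 14.35, 14.27 and 14.27 in the Grsf1cKO mice and 14.52, 14.37 and 14.40 in the WT mice. The genotypes did not overlap, with a log2 fold change of -0.14 (interval -0.35 to 0.08, limma *p* = 0.170, exact permutation *p* = 0.1). *Atpaf2*, which holds the alpha subunit of F1, was at 11.85, 11.77 and 11.79 against 11.80, 11.71 and 11.88, with overlap and a log2 fold change of 0.01. The intervals of *Atpaf1* and *Atpaf2* overlapped, from -0.46 to 0.05 and from -0.20 to 0.22, and the difference between them was not tested.

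**Figure D3:**
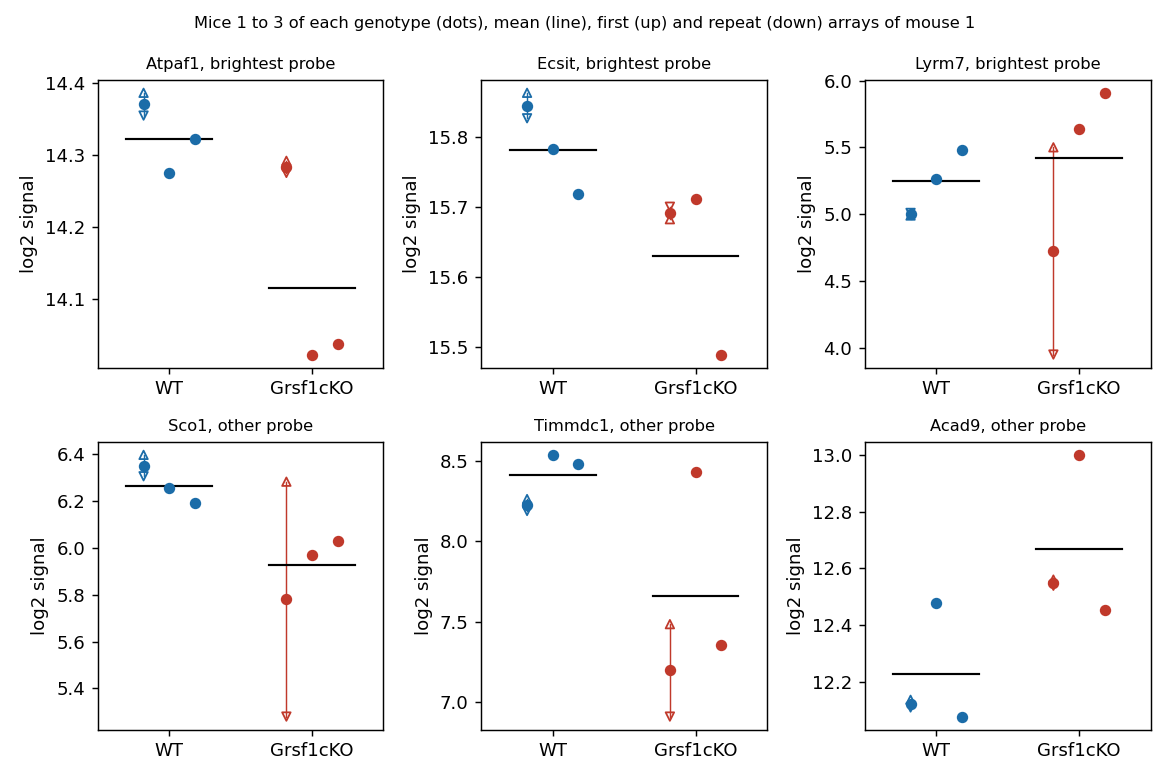
Log2 signal (y axis) of 6 probes in the WT and Grsf1cKO mice (x axis), with a dot for each mouse, a line for the mean of 3 mice and open triangles for the first (up) and repeat (down) array of mouse 1. The repeat array pulls Grsf1cKO 1 down for *Lyrm7* and the other probe of *Sco1*, while the arrays of that mouse nearly coincide for *Atpaf1*.

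Where a gene had several probes, their log2 fold changes were mostly close to each other. In 16 of the 20 genes the log2 fold changes of the probes lay within 0.2 of each other, and in 4 they did not. In 10 genes the probes had opposite signs. Since 63 of all 68 member probes lay within 0.2 of 0, this closeness does not show that probes of a gene agree. Of the 7 member probes with a mean log2 signal under 9, 3 had a log2 fold change over 0.2 in size, against 2 of the 61 brighter ones. The median standard error was 0.170 in the former and 0.0937 in the latter.

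The 4 genes whose probes disagreed are described here, and apart from *Sco1* they were chosen after their values were seen. The other probe of *Sco1* was at 5.78, 5.97 and 6.03 in the Grsf1cKO mice and 6.35, 6.26 and 6.19 in the WT mice. All Grsf1cKO mice were lower, with a log2 fold change of -0.34 (interval -0.59 to -0.09, limma *p* = 0.0171, adjusted *p* = 0.996, exact permutation *p* = 0.1). The 2 arrays of Grsf1cKO 1 gave 6.28 and, on the repeat, 5.28, and the log2 fold change was -0.20 with the first arrays only, with an unadjusted limma *p* over 0.05. The brightest probe of *Sco1* was at 0.00.

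The other probe of *Timmdc1* gave the largest difference of all member probes. It was at 7.20, 8.43 and 7.36 in the Grsf1cKO mice and 8.23, 8.54 and 8.48 in the WT mice. Grsf1cKO 2 lay among the WT mice and the other two lay about 1 log2 unit below, for a log2 fold change of -0.75 (interval -1.57 to 0.07, limma *p* = 0.0657, exact permutation *p* = 0.2). Without Grsf1cKO 2 it was -1.14, with an unadjusted limma *p* under 0.05, and without Grsf1cKO 1 it was -0.52. The brightest probe of *Timmdc1* was at -0.07 (interval -0.45 to 0.31).

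The other probe of *Acad9*, whose protein is an acyl-CoA dehydrogenase relative in the MCIA scaffold, was at 12.55, 13.00 and 12.46 in the Grsf1cKO mice and 12.12, 12.48 and 12.08 in the WT mice. Mouse 2 was the highest in both genotypes, and Grsf1cKO 3 lay just under WT 2. The log2 fold change was 0.44 (interval -0.02 to 0.90, limma *p* = 0.0568, exact permutation *p* = 0.2), beside 0.05 for the brightest probe. The other probe was not dim, with a mean log2 signal of 12.45 beside 12.78 for the brightest. Without Grsf1cKO 2 the other probe was at 0.27. Its unadjusted limma *p* was under 0.05 in 7 of 18 alternatives. For *Cox16*, whose brightest probe was at -0.03, the dimmest probe was at -0.33 (interval -0.81 to 0.15), with 6.20 and 4.91 on the 2 arrays of Grsf1cKO 1, and another probe was at 0.06. The dimmest probe was at -0.11 with the first arrays only, -0.55 with the repeat arrays in their place and -0.08 with normexp. The position of each probe in its transcript was not given in the sources used here.

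**Figure D4:**
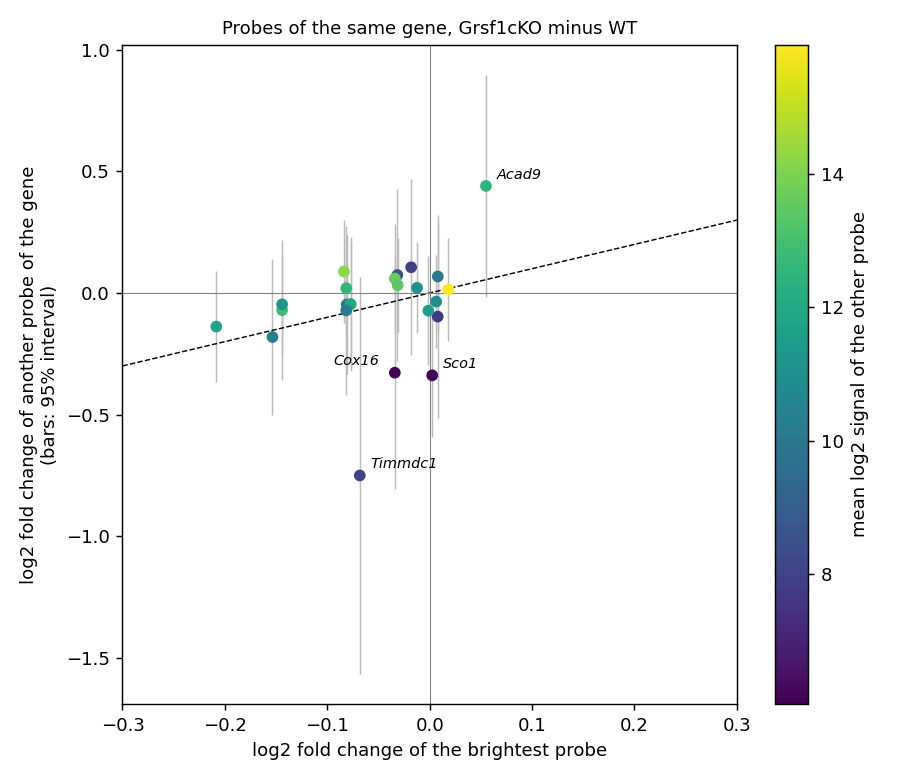
Log2 fold change of the brightest probe (x axis) and of each other probe of the same gene (y axis, with 95% intervals) for the 20 genes with several probes, colored by the signal of the other probe. The dashed line marks equal values, and *Timmdc1*, *Cox16*, *Sco1* and *Acad9* lie away from it.

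The mice of a genotype differed among themselves. The median deviation of the 44 genes from the WT mean was -0.00, -0.02 and -0.03 on the log2 scale in Grsf1cKO mice 1 to 3 and 0.05, -0.03 and -0.02 in WT mice 1 to 3. WT 1 had the highest value of the 6 mice for 20 of the 44 genes and Grsf1cKO 3 the lowest for 15. The range over the 3 mice had a median of 0.162 in Grsf1cKO and 0.144 in WT mice, and it was wider in Grsf1cKO for 21 of the 44 genes. *Lyrm7* had the widest range in both, at 1.18 and 0.477.

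Other genes of the respiratory chain gave values of the same size. Of 78 nuclear encoded subunits listed, 77 had a probe and all were tested, with 0 called and 0 with an unadjusted limma *p* under 0.05 in either direction. Their median log2 fold change was -0.03, from -0.20 for *Sdha*, the flavin subunit of complex II, to 0.15 for *Cox7a2*, a small subunit of complex IV. By overlap, 12 of the 77 (15.6%) were lower in every Grsf1cKO mouse and 0 higher, beside 6.27% of all probes lower, but this moved with the processing and the mice. It was 16 with scaling to the 75th percentile (3.51% of all probes lower), 0 with the deposited *z*-scores (5.86%), 25 on slide 2 only (13.2%) and 26 without WT 2 (13.4%). With first arrays only 9 were lower (5.28%) and 3 higher (3.86%), and without WT 1 15 were lower (12.3%) and 6 higher (7.26%). In all, 55 of the 77 subunits (71.4%) had a log2 fold change under 0, beside 57.5% of all probes, but 73 of 77 did with scaling to the 75th percentile and 8 of 77 with the deposited *z*-scores. Of 20 further factors of assembly or stability, 19 had a probe, 0 were called and 0 had an unadjusted limma *p* under 0.05. Among them 5 of 19 (26.3%) were lower in every Grsf1cKO mouse and 0 higher, beside 6.27% of all probes lower. This was 3 lower with the 75th percentile (3.51% of all probes), normexp (6.24%), first arrays only (5.28%) and the repeat array of Grsf1cKO 1 left out (4.85%). It was 0 lower with the deposited *z*-scores (5.86%), and 1 higher with normexp (3.31% of all probes) and first arrays only (3.86%). With mice left out in turn 5 to 7 were lower (11.4% to 13.4% of all probes). On the higher side, 3 were so without WT 1 (7.26%) and 2 without Grsf1cKO 3 (6.94%). The median of the 19 factors was -0.07, with the highest value, 0.35, for *Tmem242*, a factor of ATP synthase assembly. That value came with 13.55 in Grsf1cKO 2 and at most 12.60 in the other 5 mice.

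**Figure D5:**
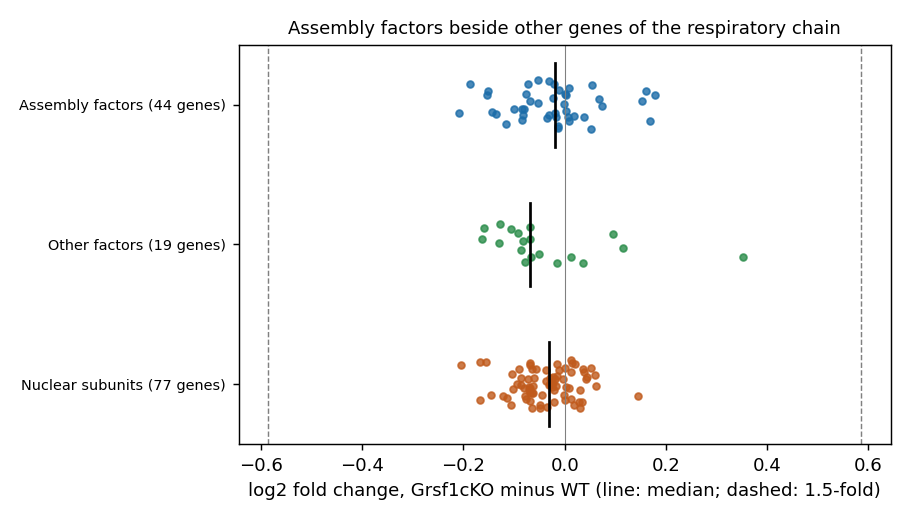
Log2 fold change of Grsf1cKO over WT (x axis) for 44 assembly factors, 19 other factors and 77 nuclear encoded subunits, with a dot per gene, spread vertically at random within a row, and a line at the median. All lie inside the dashed lines at 1.5-fold.

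Markers of mitochondrial content and of fiber type were read beside these results. Of 6 genes of mitochondrial content, 5 were lower and 1 higher, 0 had an unadjusted limma *p* under 0.05, their median log2 fold change was -0.06, and their summed signal was 901300 to 926300 in the Grsf1cKO and 911400 to 940000 in the WT mice. Among them *Ppargc1a*, a regulator of mitochondrial biogenesis, was at 12.63, 12.60 and 12.34 in the Grsf1cKO mice and at 12.84, 12.85 and 12.66 in the WT mice. All Grsf1cKO mice were lower, with a log2 fold change of -0.26 (adjusted *p* = 0.996 in limma). Of 6 genes of slow fibers, 5 were higher and 1 lower, with a median of 0.55, and 1 of them, *Myl2*, had an unadjusted limma *p* under 0.05. Grsf1cKO 3 was the highest of the 6 mice for 5 of the 6 genes, and without it 2 were higher and 4 lower, with a median of -0.0094. Their summed signal was 230700 to 293100 in the Grsf1cKO and 225300 to 240800 in the WT mice. Most of this sum was *Myl3*, with a log2 signal of 17.66 to 17.80 over the 6 mice and a log2 fold change of 0.02. *Tnni1*, the slow troponin I, was at 11.19, 10.61 and 14.33 in Grsf1cKO mice 1 to 3 and at 10.35, 11.17 and 11.21 in the WT mice. *Myh7*, the slow myosin heavy chain, had a log2 fold change of -0.59, with 11.35, 9.46 and 9.39 in the Grsf1cKO mice and 9.27, 11.38 and 11.33 in the WT mice. *Myh7* was the 1 gene of the list in which Grsf1cKO 3 was not the highest mouse.

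Among markers of other cells, some of leukocytes and fibroblasts also stood apart in Grsf1cKO 3, the mouse that was lowest for 15 of the 44 members. *Cd68*, a macrophage gene, was at 13.30 in it and at 11.57 to 11.96 in the other 5 mice, and *Ptprc*, the common leukocyte antigen, was at 10.38 against 8.79 to 9.42. In all, 4 of 5 leukocyte genes and 2 of 4 fibroblast genes, both of them collagens, were highest in this mouse. The summed signal of the leukocyte genes was 48210 to 64710 in the Grsf1cKO and 49300 to 58760 in the WT mice, and that of the fibroblast genes 281300 to 305000 and 261300 to 303000. The largest parts of these sums were *Itgam* and *Dcn*, with log2 fold changes of -0.13 and 0.03. No gene of either list had an unadjusted limma *p* under 0.05. Nor did any listed gene of adipocytes, endothelium, Schwann cells or erythroid cells, with median log2 fold changes of -0.16, -0.08, 0.03 and -0.14. Without Grsf1cKO 3 the median log2 fold change of the members was -0.02, with 25 of 44 lower, beside 28 with all mice. The part of mitochondrial content, other cells and fiber type in the members' values was not tested.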

How the data were processed

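Muscle RNA of 6 mice was hybridized to 8 arrays. All Grsf1cKO arrays were on slide 2, while WT arrays were on slides 1 and 2, so that genotype and slide were partly confounded. The authors deposited the Feature Extraction (12.0.3.1) output, whose processed intensity is linear and already background corrected, together with a *z*-score table. The deposited score of each spot is the *z*-score of its log2 signal within its array. The methods name quantile normalization and a *z*-test. The members and lists were chosen with earlier results of these data known.

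Controls were dropped and spots called non-uniform or population outliers became missing values. Quantile normalization of all 8 arrays was followed by log2, then by means over replicate spots and, for the 2 mice with a repeat, over arrays. A probe entered the limma 3.58.1 (R 4.3.3) fit of genotype alone if it was well above background in 3 or more of 6 mice (on each array of the mouse) and had values in 2 or more mice per genotype, with Benjamini-Hochberg adjustment over all probes. The script was tested on simulated data. Of 56605 probes, 32994 were named by accession through RefSeq (GRCm38.p6). The number of mice, 3 per genotype, limits the precision.

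Members described with values in every mouse were those past a threshold or without overlap and, per complex, those with the largest and smallest difference and the brightest probe. *Cox19* met none of these rules and was added outside them. For a gene with several probes the brightest was the main one. Whether a probe also reads near-identical copies of its gene could not be checked. Alternatives covered normalization, background, the deposited *z*-scores, detection, arrays, slide, prior, pairing, probes, each mouse left out and a *z*-test rebuilt from the methods.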

Additional observations from a re-analysis of the deposited data

How the results depend on the processing

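No member probe was called under any of the 18 alternatives fitted with limma, of which the replicate block did not call *Grsf1* either. Nor was any called by a *z*-test, which called 31 probes higher and 146 lower of 38888. This test was rebuilt from the methods' description on the deposited *z*-scores, which were not quantile normalized, and may differ from the one the study ran. The median over the 44 genes ran from -0.04 to -0.01, and the number lower in Grsf1cKO from 24 to 33. Scaling to the 75th percentile put the median of all probes at 0.01. Counts were small and moved. An unadjusted *p* under 0.05 on the higher side (0 in the main analysis) was seen for 1 probe with the 75th percentile, normexp, first arrays only, the repeat array of Grsf1cKO 1 left out, slide 2 only, slide as a block and an intensity trend, where 0.787% to 2.57% of all probes were. On the lower side (1 in the main analysis) it was 0 with the 75th percentile, first arrays only, repeat arrays in place, the repeat array of Grsf1cKO 1 left out and slide as a block (0.738% to 2.38% of all probes), and 2 of 68 with normexp (2.38%) and with an intensity trend (2.35%; *Atpaf1* and the other *Timmdc1* probe in the latter). With mice left out in turn these counts ran from 0 to 1 (1.03% to 1.97% of all probes) and from 0 to 2 (2.52% to 3.81%). Genes without overlap on the higher side (0) numbered 1 with the 75th percentile, first arrays only, repeat arrays in place, the repeat array left out and slide 2 only (2.67% to 7.16% of all probes), and 0 to 3 with mice left out (5.98% to 7.99% of all probes). On the lower side (3) they numbered 1 with normexp (6.24% of all probes), 7 on slide 2 only (13.2% of all probes), and 3 to 10 with mice left out (11.4% to 13.4% of all probes), the 10 being without Grsf1cKO 1 and 7 without WT 2 or WT 3. The median of complex III was 0.00357 with the deposited *z*-scores and that of complex I -0.0446 with the mean of a gene's probes. With mice left out the median of complex I ran from -0.0431 to 0.0184 and that of complex II from -0.0759 to -0.00227. The causes were not tested.

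The replicate numbers were not taken as pairs, since the correlation of deviations was 0.232, 0.0970 and 0.104 for numbers 1, 2 and 3, although every mouse correlated best with its own number. With the replicate block, 1 member probe had an unadjusted *p* under 0.05 on the higher side (2.26% of all probes) and 2 on the lower side (3.95%), no member was called, and *Grsf1* stayed at -2.19 with an adjusted *p* of 0.250 in limma. The higher probe was the other probe of *Acad9*. *Grsf1* itself missed the false discovery rate of 0.2 in this fit, so that the absence of a member call in it says little.

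Among single member probes, 1222 comparisons with an alternative moved by less than the spread between mice and stayed on the same side of the test's threshold, of which 110 changed sign. Further, 18 gained an unadjusted *p* under 0.05, 8 lost it and 20 moved by more than the spread between mice. *Lyrm7* ran from -0.09 to 0.53, the dim *Sco1* probe from -0.48 to -0.14, the other *Timmdc1* probe from -1.14 to -0.52 and the other *Acad9* probe from 0.27 to 0.57. Slide 1 held only WT arrays, the first of WT 1 and that of WT 2, so that genotype and slide were partly confounded. An effect of slide was not tested. With slide 2 only, the WT group was left with the repeat of WT 1 and with WT 3. Dim signals limit *Lyrm7* and the dim probes of *Sco1*, *Cox16* and *Timmdc1*.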
